A study of Mus musculus with 18 samples.

Results

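The genes described here are 33 genes of pyruvate oxidation in mouse left ventricle: the steps that bring pyruvate into the mitochondrion, the pyruvate dehydrogenase complex (PDH), the kinases and phosphatases that switch PDH off and on, and the enzymes of the tricarboxylic acid (TCA) cycle. They were listed by name and step and found by symbol among the 38355 genes of the count tables. All 33 had enough counts to be tested: 4 of pyruvate entry, 5 PDH subunits, 7 kinases and phosphatases (Pdpr, a phosphatase regulator, among them), and 17 TCA enzymes.

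RNA came from left ventricular myocardium of mice of the (DBA/2J x C3HeB/FeJ)F1 background, in 18 libraries. WT mice had no operation (n = 5). The other 3 groups carried MHC-cycD2, a transgene that places the cell cycle protein cyclin D2 under a myosin heavy chain promoter, active in heart muscle cells, and they had a sham operation (n = 5), transverse aortic constriction (TAC, n = 3, replicates 1, 2 and 4) or an aortocaval shunt (Shunt, n = 5). TAC, a narrowing of the aorta, is a pressure load, and the Shunt, which joins aorta and vena cava, is a volume load. Mice were operated at 8 weeks of age. Each procedure had its own sham operation per the labels, which do not state the one used for the sham mice, and the time from surgery to collection is not given in the sources used here. Sham mice differ from WT mice in both the transgene and the operation, so the contributions of these cannot be told apart. No operated mouse lacked the transgene, so TAC and Shunt were compared on the transgenic background alone. The labels name each library as a separate sample, and a p-value here reflects the spread among such samples, which may be technical in part.

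Each library held 19297821 to 30594075 counts in genes. The 8 heart muscle markers of the marker list, Myh6 and Tnnt2 among them, had counts in every library, at 53100 to 95840 CPM summed (CPM are counts scaled to a common library total). Ccnd2, the gene of the transgene's product, lay at 7.14 to 7.56 log2 CPM in WT and at 14.11 to 14.90 in the transgenic libraries except one: the library labelled cycD2 TAC replicate 2 lay at 7.83, near WT, against its label. Results on TAC are given also without it. The clock gene Arntl exceeded Dbp, a clock output gene that peaks when Arntl is low, in every TAC library, in the first 2 sham libraries and in WT replicates 1 to 3, and Dbp exceeded Arntl in the rest, every Shunt library included. Y-linked genes were expressed in WT, sham and TAC replicate 4, and were near 0 in TAC replicates 1 and 2 and every Shunt library, where Xist was high. The labels give neither sex nor time of day. The order of Arntl and Dbp runs with the group in TAC and in Shunt. The Y-linked pattern runs with the group in Shunt and is mixed in TAC.

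Pyruvate, the product of glycolysis, enters the mitochondrion through the carrier formed by Mpc1 and Mpc2. PDH turns it into acetyl-CoA, and this step is irreversible in animals: kinases (the Pdk genes) shut PDH off by phosphorylation and phosphatases (the Pdp genes) reopen it. The TCA cycle then oxidises acetyl groups from glucose and from fatty acids, and its NADH and succinate feed the respiratory chain. The healthy adult heart takes most of its acetyl-CoA from fatty acids, and a shift in the balance between both fuels is a known feature of the overloaded heart.

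The promoters of 3 regulators of PDH are shown, chosen because each holds the motif CACGTG in the 250 bases before a RefSeq start of the gene. The presence of this motif in each is thus no result. Their genes are also among those that move with the groups and, for Pdk2 and Pdp2, with the clock genes across libraries. Pdk2 is a kinase of PDH, Pdp2 a phosphatase, and Pdpr a regulatory subunit that restrains the phosphatase. Each sequence is the 250 bases before a RefSeq start of the gene (GRCm38.p6), 5′ to 3′ on the gene's strand. The Pdp2 and Pdpr sequences reach past the gene start given by GENCODE, the source of gene positions here. Capitals mark CACGTG, the E-box that CLOCK and the Arntl product bind.
Pdk2, chr11:95041372-95041621, minus strand: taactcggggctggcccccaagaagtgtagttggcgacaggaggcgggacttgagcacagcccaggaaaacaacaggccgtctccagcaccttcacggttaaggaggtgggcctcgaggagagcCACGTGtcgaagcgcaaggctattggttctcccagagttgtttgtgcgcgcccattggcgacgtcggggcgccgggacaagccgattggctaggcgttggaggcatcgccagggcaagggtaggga
Pdp2, chr8:104591222-104591471, plus strand: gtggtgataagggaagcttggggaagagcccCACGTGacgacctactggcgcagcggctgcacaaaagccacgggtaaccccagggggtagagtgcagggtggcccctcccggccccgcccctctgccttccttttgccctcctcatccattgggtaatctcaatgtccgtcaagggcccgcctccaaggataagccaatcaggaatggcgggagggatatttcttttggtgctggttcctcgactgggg
Pdpr, chr8:111094495-111094744, plus strand: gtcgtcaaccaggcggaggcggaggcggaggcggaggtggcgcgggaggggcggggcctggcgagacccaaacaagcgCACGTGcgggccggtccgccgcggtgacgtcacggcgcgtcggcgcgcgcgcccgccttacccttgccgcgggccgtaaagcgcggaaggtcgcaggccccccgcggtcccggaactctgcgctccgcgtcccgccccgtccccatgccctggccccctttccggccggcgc
RefSeq promoter windows, 250 bases before to 50 after a start, were at hand for 30 of the 33 genes, with 39 windows. CACGTG, which reads the same on both strands, was in at least 1 window of 5 of the 30 genes (16.7%: Pcx, Pdk2, Pdp2, Pdpr and Ogdh). Over all 27025 genes with windows of this length the share was 8.09%. AAGGTCA, the core of the sites of estrogen-related receptors and other nuclear receptors, was searched on both strands. It was in windows of Ogdh and Sdhd (6.67% of the 30 genes, against 5.38% of all genes). One Ogdh window held both motifs, at different places. These matches are letters in a window. Binding was not measured.

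Levels of different genes are compared per length, as RPKM (CPM per kilobase of exon). In cycD2 sham the most abundant member was Mdh1, the cytosolic malate dehydrogenase, at 1196 ± 90.9 RPKM (SD, n = 5), followed by Idh2, the NADP-linked isocitrate dehydrogenase, at 775 ± 51.2 and Ogdh, the first subunit of 2-oxoglutarate dehydrogenase, at 613 ± 22.2. Among PDH subunits, Pdha1, the catalytic E1 alpha chain, stood at 342 ± 22.2 RPKM, above Dld, the E3 subunit, at 174 ± 8.85, Pdhb, the E1 beta chain, at 115 ± 8.96 and Dlat, the E2 core, at 107 ± 5.13. The neighbours Pdhb and Dlat lay within their spread of each other. Pdhx, which anchors E3 to the core, was lowest of the complex at 42.6 ± 1.63 RPKM. Of the regulators, Pdk2 stood at 192 ± 23.7 RPKM, above each PDH subunit except Pdha1, Pdk4 at 84.4 ± 35.0, Pdk1 at 31.9 ± 1.93, Pdp1 at 15.7 ± 2.26, Pdp2 at 4.54 ± 1.29 and Pdk3 at 1.40 ± 0.371 RPKM. By RPKM, Pdk2 and Pdk4 were the most abundant kinase genes and Pdk3 the least.

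**Figure D1:**
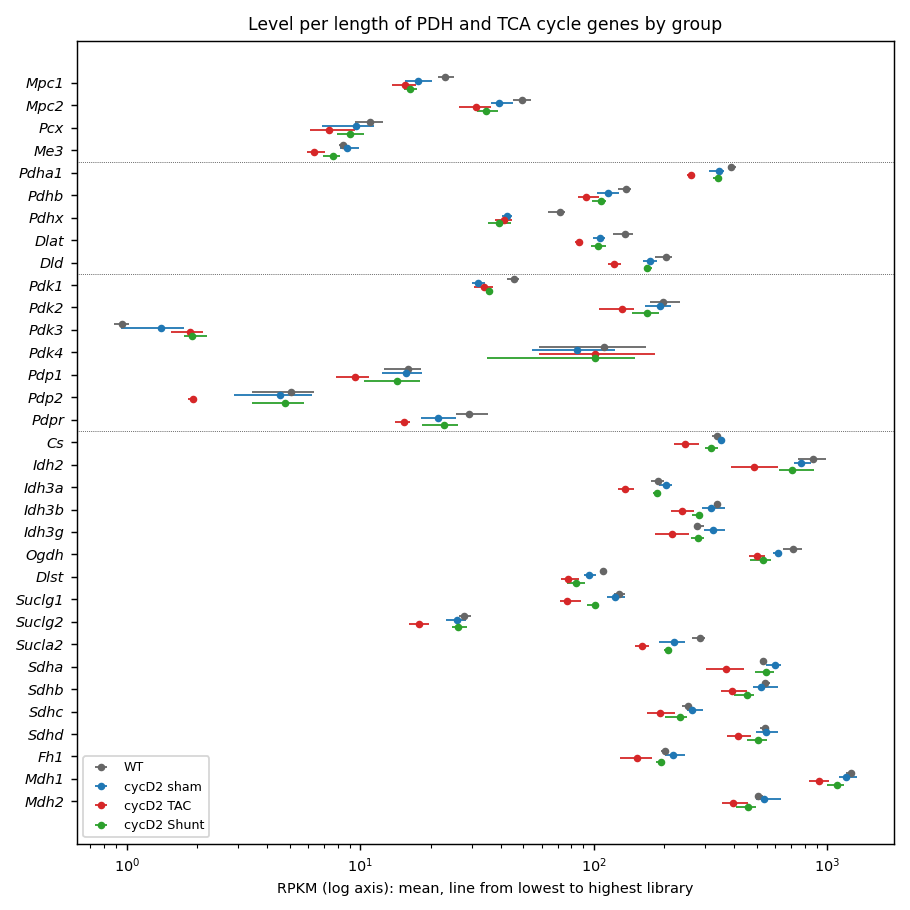
Level per length of the 33 genes, in RPKM on a log axis, by group. Points are group means and lines run from the lowest to the highest library (n = 5, 5, 3 and 5). Pdk2 and Pdk4 lie among the PDH subunits, the other kinase and phosphatase genes below all of them, and the wide lines of Pdk4 mark its spread within groups.

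The first comparison, cycD2 sham with WT, asks what differs in the transgenic heart without load. PDH genes were lower in cycD2 sham: all 5 subunits fell, led by Pdhx at 0.595 times the WT level, and the kinase Pdk1 fell to 0.697 times. Both pyruvate carrier genes fell as well, while most of the TCA cycle stayed under the threshold: of its 17 enzymes 3 fell (Sucla2, Ogdh and Dlst), 1 rose (Idh3g) and 13 were not called. In all, 12 of the 33 genes fell and 2 rose (Pdk3 and Idh3g) at an adjusted p under 0.05, where 14.9% and 13.5% of the 14876 genes tested did. The median log2 difference of the 33 was -0.10, beside -0.014 over all genes tested. It was -0.033 without sham replicate 2, -0.066 without sham replicate 1 and -0.058 without WT replicate 4. In bulk tissue, fewer heart muscle cells and less RNA per cell cannot be told apart. Of the 8 heart muscle markers, 1 rose and 0 fell here, with a median of 0.17, and the 7 fibroblast markers were not called. Markers of other cells were called too: 3 of 6 endothelial, 2 of 6 smooth muscle and pericyte and 3 of 4 mesothelial markers fell. Of 3 atrial muscle markers tested 2 rose, with a median of 4.81, and their summed level was 41.6 to 731 CPM in sham beside 3.89 to 29.7 in WT. With the atrial genes as a covariate 8 genes were called lower and 1 higher, and Pdha1, Pdhb, Pdk3, Ogdh and Dlst lost their calls. That fit called 3333 of all genes tested, where 4227 were called without the covariate. The part of cell makeup in this comparison was not tested beyond that fit.

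Among genes of pyruvate entry, Mpc1 (29.6% of its 50-base stretches are shared with other genes, chiefly a pseudogene, so its counts are uncertain) was at 52.6, 46.2, 49.8, 45.0 and 45.6 CPM in WT, 35.5, 32.2, 37.6, 42.2 and 37.0 in cycD2 sham, 28.4, 32.2 and 36.2 in cycD2 TAC and 36.0, 33.5, 36.3, 32.0 and 32.96 in cycD2 Shunt. Every WT library was above every cycD2 sham library, and sham, TAC and Shunt overlapped. Mpc1 fell from WT to cycD2 sham, with a log2 difference of -0.38 (SE 0.077, adjusted p = 0.0015). Differences are given on the log2 scale from here on, the first-named group minus the second, and levels in CPM. Its partner Mpc2 was at 390.5, 396, 366, 330.0 and 332 CPM in WT, 306, 270.3, 268, 331 and 273 in cycD2 sham, 194, 229 and 267 in cycD2 TAC and 285, 262, 239, 233 and 254 in cycD2 Shunt. The highest sham library lay between the lowest 2 WT libraries, and each TAC library was below every sham library. Mpc2 fell as well, with -0.33 (SE 0.089, adjusted p = 0.0107). Pcx, pyruvate carboxylase, which makes oxaloacetate from pyruvate, was at 48.7, 45.3, 51.2, 59.3 and 56.9 CPM in WT, 37.4, 32.7, 53.2, 54.6 and 49.3 in cycD2 sham, 29.0, 45.0 and 30.5 in cycD2 TAC and 37.7, 43.2, 49.4, 43.2 and 41.4 in cycD2 Shunt. Sham replicates 1 and 2 and TAC replicates 1 and 4 were lowest. Pcx was not called in any comparison of the fit without covariates, with -0.38 (SE 0.17, adjusted p = 0.0908) for TAC against sham. With the clock genes as a covariate it was called lower in sham than in WT, at -0.33 (adjusted p = 0.0252). Me3, the mitochondrial NADP-linked malic enzyme, which makes pyruvate from malate, was at 119, 121, 128, 129 and 121 CPM in WT, 128, 119, 124, 145 and 125 in cycD2 sham, 86.2, 87.7 and 103 in cycD2 TAC and 102, 120.2, 116, 110.2 and 109.6 in cycD2 Shunt. WT and sham overlapped throughout, the TAC libraries lay below all others except the lowest Shunt library, and the log2 difference of sham from WT was 0.053 (SE 0.065, adjusted p = 0.586).

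Of the PDH subunits, Pdhx (ENSMUSG00000010914, chromosome 2, 103021075 to 103073513, GRCm38) was at 294, 297, 291, 251 and 273 CPM in WT, 170.2, 158, 164, 175 and 168 in cycD2 sham, 148, 175 and 163 in cycD2 TAC and 174, 146, 139, 148 and 165 in cycD2 Shunt. WT stood apart from the 3 transgenic groups, which overlapped one another. The difference of sham from WT was -0.75 (SE 0.070, adjusted p = 1.4e-06), and it kept its call under every setting tried. The library labelled cycD2 TAC replicate 2, whose Ccnd2 is near WT, had a Pdhx level inside the transgenic range. Dlat was at 695, 678, 721, 592 and 628 CPM in WT, 532, 483, 533, 548 and 512 in cycD2 sham, 407, 424 and 439 in cycD2 TAC and 553, 497, 476, 499 and 529 in cycD2 Shunt. Its groups stepped down from WT to sham to TAC without overlap, with Shunt inside or beside the sham range. Dlat fell by 0.35 (SE 0.062, adjusted p = 0.000519) from WT to sham. Dld, which PDH shares with 2-oxoglutarate dehydrogenase, was at 799.9, 783, 790.0, 673 and 691 CPM in WT, 650.5, 600.3, 644, 686 and 619.7 in cycD2 sham, 442, 422 and 481 in cycD2 TAC and 623, 653, 614, 612 and 609.5 in cycD2 Shunt. WT replicates 4 and 5 were within or near the sham range, and TAC was below all other libraries. Its difference of sham from WT was -0.22 (SE 0.061, adjusted p = 0.011). Pdha1, an X-linked gene whose exons overlap those of Map3k15 over 16.1% of their bases, was at 1439, 1427, 1523, 1443 and 1426 CPM in WT, 1225, 1162, 1348, 1354 and 1300.1 in cycD2 sham, 993, 939 and 994 in cycD2 TAC and 1209, 1300.4, 1301, 1263 and 1286 in cycD2 Shunt. Every WT library exceeded every sham library and every TAC library was below every sham library, whereas Shunt overlapped sham. Pdha1 fell by 0.18 (SE 0.053, adjusted p = 0.0145) from WT to sham. Pdhb averaged 533 ± 26.8 CPM in WT, 446 ± 34.6 in cycD2 sham, 359 ± 39.7 in cycD2 TAC and 415 ± 23.4 in cycD2 Shunt, and fell by 0.26 (SE 0.068, adjusted p = 0.00894).

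**Figure D2:**
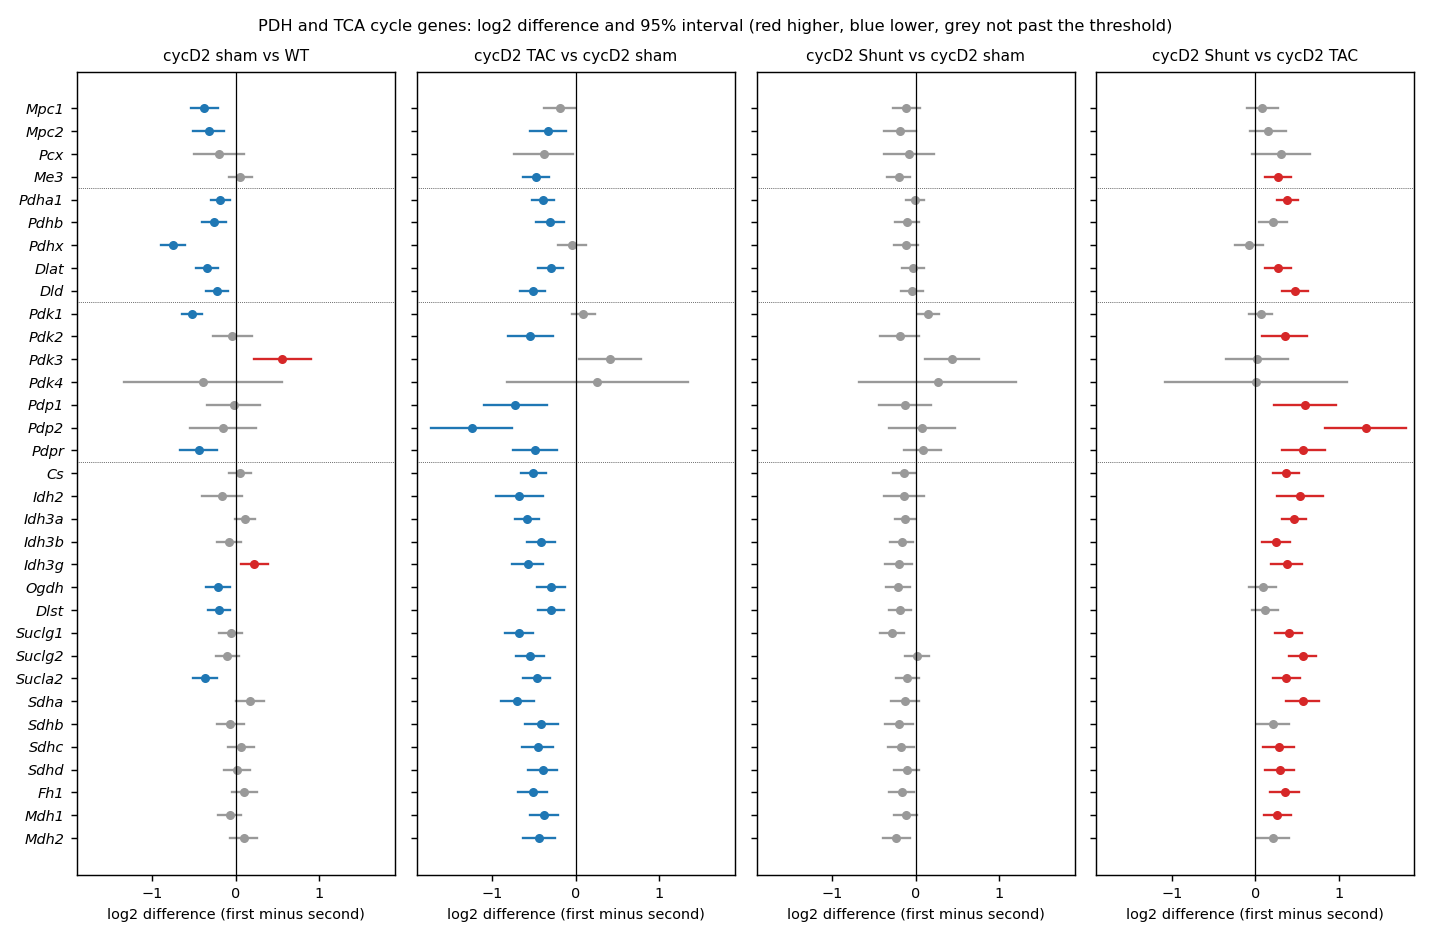
Log2 differences of the 33 genes in the 4 comparisons, with 95% intervals (points and lines, log2 axis), by step of the pathway. Blue marks lower and red higher at an adjusted p under 0.05, grey not called. The TAC with sham panel has 27 genes lower, the Shunt with sham panel has none called, and the Shunt with TAC panel has 21 higher.

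Among the kinases, Pdk1 (ENSMUSG00000006494, chromosome 2, 71873224 to 71903858) was at 371, 368, 359.6, 349.9 and 332 CPM in WT, 245, 234, 265, 234 and 262 in cycD2 sham, 267, 287 and 238 in cycD2 TAC and 276, 285, 272, 271 and 277 in cycD2 Shunt. WT was above every transgenic library, and the Shunt libraries were all above the sham libraries. It fell by 0.52 (SE 0.058, adjusted p = 8.05e-06) from WT to sham and kept this call under every setting. Pdk1 is also a known target of the hypoxia factor HIF1. Of 12 other HIF targets listed, 3 fell in sham and 0 rose, where 14.9% of all genes tested fell, among them Bnip3, from 74.5 ± 4.59 to 50.4 ± 4.95 CPM, a mitophagy receptor. Pdk3, also X-linked, was at only 2.44, 2.32, 2.26, 2.53 and 2.63 CPM in WT and at 4.06, 4.22, 2.71, 2.42 and 4.51 in cycD2 sham. Sham replicate 4 lay inside the WT range and sham replicate 3 just above it, and the rise of 0.56 (SE 0.16, adjusted p = 0.0158) was lost with atrial muscle genes as a covariate (adjusted p = 0.207). Pdpr was at 147, 137, 178, 129 and 146 CPM in WT, 105, 98.8, 129.5, 91.7 and 117 in cycD2 sham, 82.4, 79.0 and 71.0 in cycD2 TAC and 92.6, 111, 117, 131 and 125 in cycD2 Shunt. One sham library overlapped the WT range, and the TAC libraries were lowest. Pdpr fell by 0.44 (SE 0.11, adjusted p = 0.00437) from WT to sham. Pdk2, Pdk4, Pdp1 and Pdp2 were not called between sham and WT, with log2 differences of -0.041, -0.39, -0.027 and -0.15.

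In the TCA cycle, Sucla2, the ADP-forming subunit of succinyl-CoA ligase, averaged 1139.5 ± 68.1 CPM in WT, 883 ± 79.5 in cycD2 sham, 639 ± 45.6 in cycD2 TAC and 826 ± 26.5 in cycD2 Shunt and fell by 0.37 (SE 0.066, adjusted p = 0.000566) from WT to sham. Its GTP-forming partner Suclg2 did not pass the test, with -0.10 (SE 0.066, adjusted p = 0.276). The log2 ratio of Sucla2 to Suclg2 in RPKM was 3.36 ± 0.148 in WT and 3.09 ± 0.0547 in cycD2 sham (SD, n = 5 each). The 2 other subunits below WT belong to 2-oxoglutarate dehydrogenase, the relative of PDH inside the cycle: Ogdh at -0.21 (SE 0.068, adjusted p = 0.0243) and Dlst at -0.20 (SE 0.064, adjusted p = 0.0263). Idh3g, an X-linked regulatory subunit of NAD-linked isocitrate dehydrogenase, rose by 0.22 (SE 0.076, adjusted p = 0.0379), and all its sham libraries were above all its WT libraries. Cs, Sdha and Idh3a, with log2 differences of 0.053, 0.17 and 0.11, were not called. Leaving out any one library kept 9 of the 14 calls, and those of Pdha1, Dld, Idh3g, Ogdh and Dlst were lost for some. Among libraries with Arntl above Dbp 6 genes were called lower, and 2 (Pdhx and Pdk1) among the others. Over all genes tested, 1139 and 1809 were called in these fits in either direction, of 4227 in the fit of all libraries.

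More of the 33 genes were called under pressure load than in any other comparison. In cycD2 TAC against cycD2 sham, 27 of the 33 genes fell and 0 rose, where 14.5% of all genes tested fell and 16.4% rose. All 17 TCA enzymes fell, to between 0.617 (Sdha) and 0.815 (Ogdh) times the sham level. So did 4 of 5 PDH subunits, the phosphatase genes Pdp1 and Pdp2, the phosphatase regulator Pdpr, the kinase Pdk2, and Mpc2 and Me3 of pyruvate entry. The median log2 difference was -0.44, beside 0.0067 over all genes tested, and for the TCA enzymes it was -0.47. For 26 genes every TAC library was below every sham library, as for 13.6% of all genes tested. The genes not called were Mpc1, Pcx, Pdhx, Pdk1, Pdk3 and Pdk4.

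Suclg1, the shared subunit of both succinyl-CoA ligases (ENSMUSG00000052738, chromosome 6, 73248382 to 73276911), was at 629, 601, 599.5, 577 and 565 CPM in WT, 588, 528, 553, 627 and 549 in cycD2 sham, 331, 330.3 and 406 in cycD2 TAC and 486, 473, 488, 430.5 and 464 in cycD2 Shunt. TAC libraries were lowest, Shunt libraries came next, and the groups TAC, Shunt and sham did not overlap. The log2 difference of TAC from sham was -0.68 (SE 0.078, adjusted p = 1.5e-05). Idh3a, the catalytic subunit of NAD-linked isocitrate dehydrogenase (ENSMUSG00000032279, chromosome 9, 54586334 to 54604661), was at 976, 1011, 1002, 888 and 908 CPM in WT, 1058, 968, 1026, 1098 and 1017 in cycD2 sham, 672, 643 and 754 in cycD2 TAC and 979, 937, 956, 914 and 949.8 in cycD2 Shunt. Its TAC libraries lay below every library of the other 3 groups, which overlapped. It fell by 0.58 (SE 0.068, adjusted p = 1.6e-05). Sdha, the flavoprotein of succinate dehydrogenase (ENSMUSG00000021577, chromosome 13, 74322254 to 74350280), was at 2173, 2118, 2275, 2283 and 2137 CPM in WT, 2406, 2262, 2567, 2625 and 2485 in cycD2 sham, 1512, 1247 and 1808 in cycD2 TAC and 2031, 2315, 2435, 2219 and 2278 in cycD2 Shunt. TAC replicate 4 was the nearest to the other groups and still below them all. Sdha fell by 0.70 (SE 0.095, adjusted p = 5.46e-05).

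Suclg2, of whose 50-base stretches 21.8% are shared with other genes, was at 128, 126, 122, 138 and 131 CPM in WT, 114, 108, 126, 131 and 122 in cycD2 sham, 81.2, 74.7 and 91.0 in cycD2 TAC and 115, 121, 133, 124 and 115 in cycD2 Shunt. WT, sham and Shunt overlapped and TAC lay below. It fell by 0.55 (SE 0.077, adjusted p = 7.12e-05). Cs, citrate synthase, which joins acetyl-CoA to oxaloacetate, was at 1863, 1871, 2007, 2012 and 1967 CPM in WT, 2051, 1975, 2024, 2072 and 1962 in cycD2 sham, 1356, 1275 and 1635 in cycD2 TAC and 1832, 1829, 1815, 1730.5 and 1968 in cycD2 Shunt. The 3 TAC libraries were again lowest, with replicate 4 the highest of them. Cs fell by 0.50 (SE 0.074, adjusted p = 9.17e-05). Idh3g was at 743, 723, 740.4, 802 and 731 CPM in WT, 840.3, 804, 865, 986 and 860.2 in cycD2 sham, 574, 493 and 688 in cycD2 TAC and 762, 774, 797, 702 and 751 in cycD2 Shunt. Here the sham libraries were highest of the 4 groups, and TAC lowest. Idh3g fell by 0.57 (SE 0.090, adjusted p = 0.000161).

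**Figure D3:**
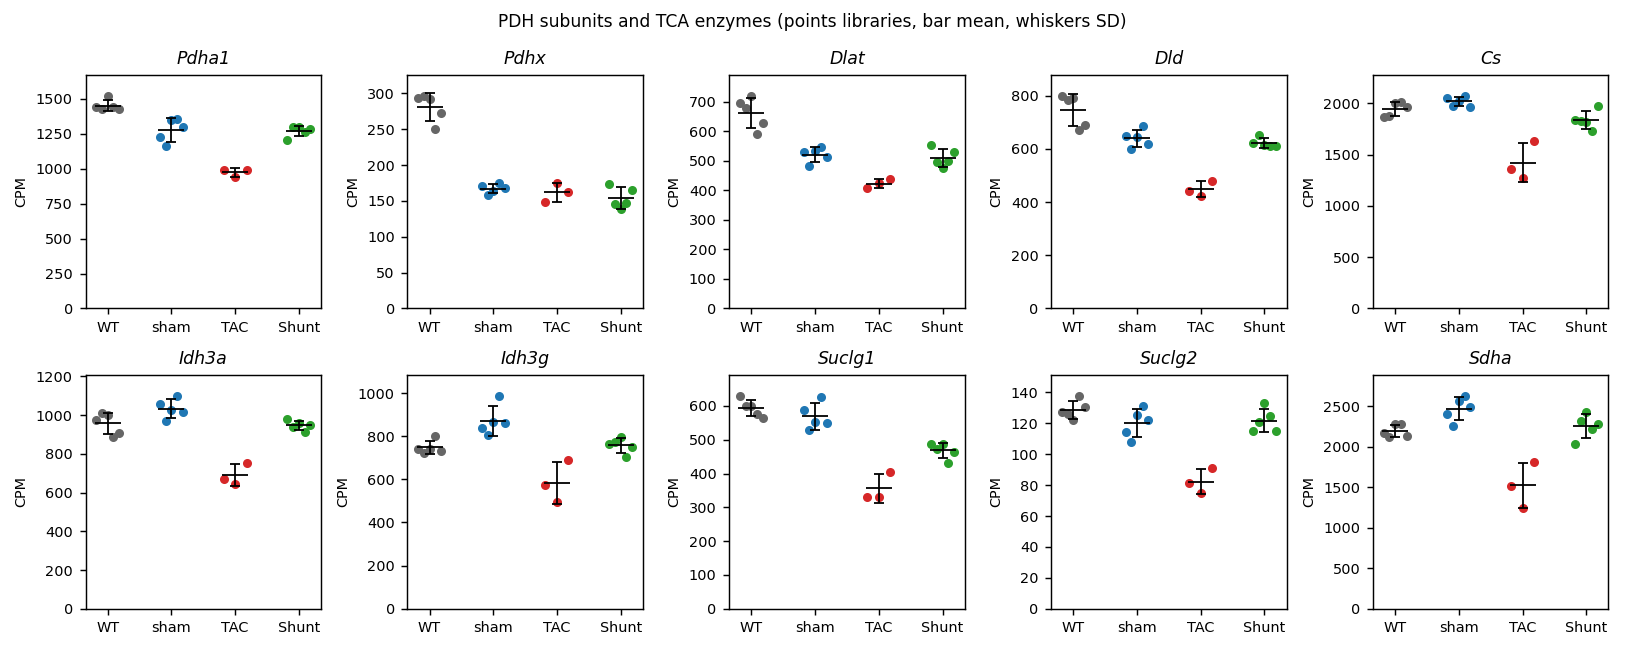
CPM of 4 PDH subunits and 6 TCA enzymes in each library (points), with mean and SD (bars and whiskers), from 0. For Pdhx the WT libraries stand apart from all others, and for the TCA enzymes the 3 TAC libraries are lowest.

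The other TCA enzymes moved the same way. Idh2 averaged 2244 ± 233 CPM in WT, 2005 ± 132 in cycD2 sham, 1257 ± 298 in cycD2 TAC and 1821 ± 257 in cycD2 Shunt (SD; n = 5, 5, 3 and 5), a difference of -0.67 (SE 0.13, adjusted p = 0.00101) for TAC. Idh3b, the other regulatory subunit of the NAD-linked enzyme, averaged 1149.6 ± 30.1 CPM in WT, 1086 ± 96.6 in cycD2 sham, 816 ± 94.8 in cycD2 TAC and 968 ± 39.1 in cycD2 Shunt. Fh1, fumarase, averaged 687 ± 21.0 CPM in WT, 739 ± 55.3 in cycD2 sham, 518 ± 81.2 in cycD2 TAC and 659 ± 22.3 in cycD2 Shunt. TAC was below sham in both, with log2 differences of -0.41 and -0.51. Sdhb, the iron-sulfur subunit of succinate dehydrogenase, averaged 1215 ± 40.3 CPM in WT, 1163 ± 119.6 in cycD2 sham, 876 ± 122 in cycD2 TAC and 1015 ± 71.2 in cycD2 Shunt. Its membrane anchors Sdhc and Sdhd averaged 858 ± 57.2 and 669.8 ± 55.7 CPM in sham and 626 ± 87.0 and 509 ± 61.0 in TAC. The 3 subunits changed by -0.41, -0.45 and -0.40, less than Sdha in each estimate, and the difference from Sdha was not tested. Mdh2, the mitochondrial malate dehydrogenase, averaged 1797 ± 58.6 CPM in WT, 1916 ± 188 in cycD2 sham, 1411 ± 195 in cycD2 TAC and 1636 ± 120.2 in cycD2 Shunt. Mdh1 averaged 3231 ± 95.5 CPM in WT, 3071 ± 233 in cycD2 sham, 2360.0 ± 240.4 in cycD2 TAC and 2828 ± 169 in cycD2 Shunt. Both fell in TAC, with log2 differences of -0.44 (SE 0.092, adjusted p = 0.00153) and -0.38 (SE 0.079, adjusted p = 0.00144). Ogdh and Dlst had the smallest falls of the cycle, -0.30 and -0.30. Both had also been lower in sham than in WT, so their means went down from WT (3874 ± 289 and 1046 ± 31.4 CPM) through sham (3342 ± 121 and 911 ± 46.4) to TAC (2723 ± 204 and 741 ± 72.8). Sucla2 took the same order, with -0.47 (SE 0.078, adjusted p = 0.000245) for TAC against sham.

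Of the PDH subunits, Dld fell most, with -0.51 (SE 0.072, adjusted p = 6.36e-05), followed by Pdha1 with -0.39 (SE 0.062, adjusted p = 0.00018), Pdhb with -0.31 and Dlat with -0.30. Pdhx did not, at -0.047 (SE 0.080, adjusted p = 0.693) and a 95% interval of -0.22 to 0.12. Pdhx was the subunit with the largest difference of cycD2 sham from WT and the one with no call under pressure load.

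Of the 33 genes, Pdp2 and Pdp1 had the largest differences between TAC and sham. Pdp2 (ENSMUSG00000048371, chromosome 8, 104591451 to 104599026) was at 28.2, 19.6, 25.8, 33.6 and 36.1 CPM in WT, 22.1, 16.4, 35.5, 25.3 and 29.9 in cycD2 sham, 10.5, 10.8 and 11.4 in cycD2 TAC and 19.6, 27.4, 28.5, 32.8 and 27.5 in cycD2 Shunt. Its 3 TAC libraries lay close together below every other library, whereas WT and sham were widely spread. Pdp2 fell to 0.423 times the sham level, a log2 difference of -1.24 (SE 0.23, adjusted p = 0.000697). Pdp1, the more abundant phosphatase, averaged 72.1 ± 10.5 CPM in WT, 70.8 ± 10.2 in cycD2 sham, 43.0 ± 6.92 in cycD2 TAC and 65.0 ± 14.6 in cycD2 Shunt, and fell by 0.72 (SE 0.18, adjusted p = 0.00517). The log2 ratio of Pdp1 to Pdp2 in RPKM was 1.83 ± 0.235 in sham (n = 5) and 2.30 ± 0.208 in TAC (n = 3). Pdpr fell by 0.49 (SE 0.12, adjusted p = 0.00638). Pdk2 was at 555, 553, 602, 740.0 and 675 CPM in WT, 525, 531, 671, 680.3 and 632 in cycD2 sham, 333, 449 and 472 in cycD2 TAC and 461, 535, 602, 529.6 and 535 in cycD2 Shunt. Its TAC libraries were below all sham libraries, although 1 Shunt library lay within their range. Pdk2 fell by 0.54 (SE 0.13, adjusted p = 0.00406). The kinases Pdk1, Pdk3 and Pdk4 were not called, at 0.089, 0.41 and 0.26. Pdk4, which fasting and fatty acids induce, was at 585, 428, 338, 205 and 391 CPM in WT, 427, 432, 191, 197 and 235 in cycD2 sham, 218, 641 and 205 in cycD2 TAC and 438, 526, 123, 209 and 484 in cycD2 Shunt. It was spread widely within every group, and in TAC its highest value was in the library labelled cycD2 TAC replicate 2. Its 95% interval of -0.82 to 1.34 leaves room for a change in either direction.

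**Figure D4:**
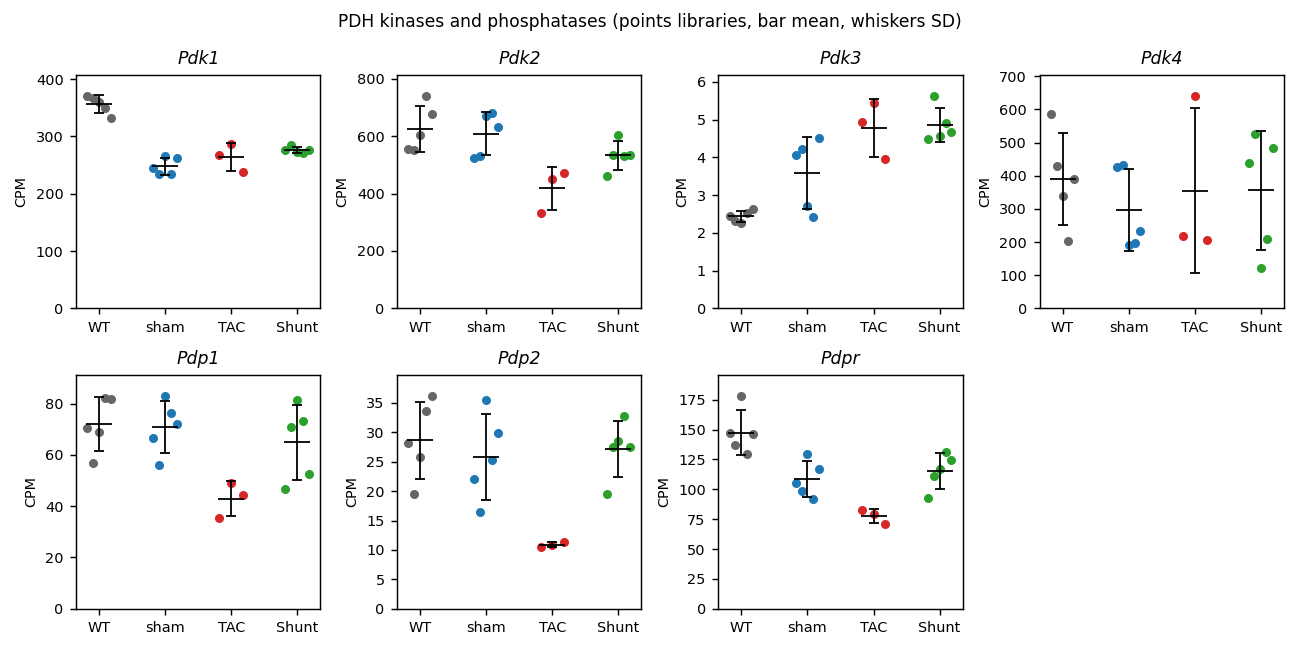
CPM of the 4 PDH kinases and of Pdp1, Pdp2 and Pdpr in each library (points), with mean and SD (bars and whiskers), from 0. Pdp2 lies between 10.5 and 11.4 CPM in TAC and above that in all other libraries, and Pdk4 is spread widely in all groups.

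The falls in TAC were seen in each of its libraries. Of the 33 genes, 30 were below every sham library in TAC replicate 1, 28 in the library labelled replicate 2 and 27 in replicate 4, against 30.5%, 33.2% and 25.8% of all genes tested. TAC replicate 4 alone has both transgenic Ccnd2 and Y-linked expression like sham, and the median of its 33 log2 differences from the sham mean was -0.30, beside -0.51 and -0.52 in the other 2. Without the library labelled cycD2 TAC replicate 2, 26 of the 27 calls remained (Mpc2 was lost) and Pcx was called lower. With the Y-linked level as a covariate, 5 of the 27 remained (Pdha1, Dld, Idh3a, Suclg1 and Sdha), and the median was -0.30. In that fit 483 genes in all were called, of 4600 without it.

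Some of the spread within groups ran with the clock genes. For 6 of the 33 genes (Pcx, Pdk2, Pdp1, Pdp2, Ogdh and Suclg2) the libraries with Dbp above Arntl were higher than those with Arntl above Dbp, without overlap, in both WT and sham. Mpc1 and Pdhb were also without overlap, in opposite directions in the 2 groups. The share of all genes tested with such patterns was not counted, so these counts are not read as a trait of the 33 genes. Pdp2 lay at 19.6 to 28.2 CPM in WT libraries with Arntl above Dbp and at 33.6 to 36.1 in the other WT libraries, and at 16.4 to 22.1 against 25.3 to 35.5 in sham. Pdk2 lay at 553 to 602 against 675 to 740 CPM in WT, and at 525 to 531 against 632 to 680 in sham. Pcx lay at 45.3 to 51.2 against 56.9 to 59.3 CPM in WT and at 32.7 to 37.4 against 49.3 to 54.6 in sham. Suclg2 lay at 122 to 128 against 131 to 138 CPM in WT and at 108 to 114 against 122 to 131 in sham. These genes were chosen after their values were seen. CACGTG was in a window of Pcx, Pdk2, Pdp2 and Ogdh and not in that of Suclg2, and Pdp1 had no window. Other windows of Pcx, Pdk2 and Ogdh lacked it, and Pdpr, which has it, overlapped. All TAC libraries have Arntl above Dbp. Against the 2 sham libraries of that kind, Pdp2 differed by -0.82 (adjusted p = 0.023), Pdk2 by -0.34 (adjusted p = 0.152), Pdp1 by -0.52 (adjusted p = 0.0655), Suclg1 by -0.65 (adjusted p = 0.0117) and Idh3a by -0.56 (adjusted p = 0.0139). In these 5 libraries 10 of the 27 calls remained, and the median of the 33 genes was -0.37. Over all genes tested 1495 were called in the fit of this clock state, of 4600 in the fit of all libraries. With the clock genes as a covariate over all libraries, 25 of the 27 calls remained (Pdp1 and Ogdh were lost), and the median was -0.39. That fit called 3411 of all genes tested, of 4600 without it. With the library labelled cycD2 TAC replicate 2 also left out, 21 of the 27 remained. Whether the clock state had a part in the differences of the 33 genes was not tested beyond these fits.

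Markers of other cells moved with TAC too. All 7 fibroblast markers rose, with a median log2 difference of 1.39 and a summed level of 2541 to 6566 CPM in TAC, beside 1050 to 1977 in sham. Of 6 endothelial markers 4 rose. Of the 8 heart muscle markers 5 fell and 1 rose (Actn2), with a median of -0.35 and a summed level of 53100 to 78820 CPM in TAC and 81080 to 95840 in sham. The part of a change in cell makeup in the PDH and TCA results was not tested. Ucp1, which defines brown fat, was at most at 0.0456 CPM in any library. Of the other brown fat markers listed, Elovl3 was at most at 0.147 CPM and Cidea was at 18.2 to 42.1 CPM.

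**Figure D5:**
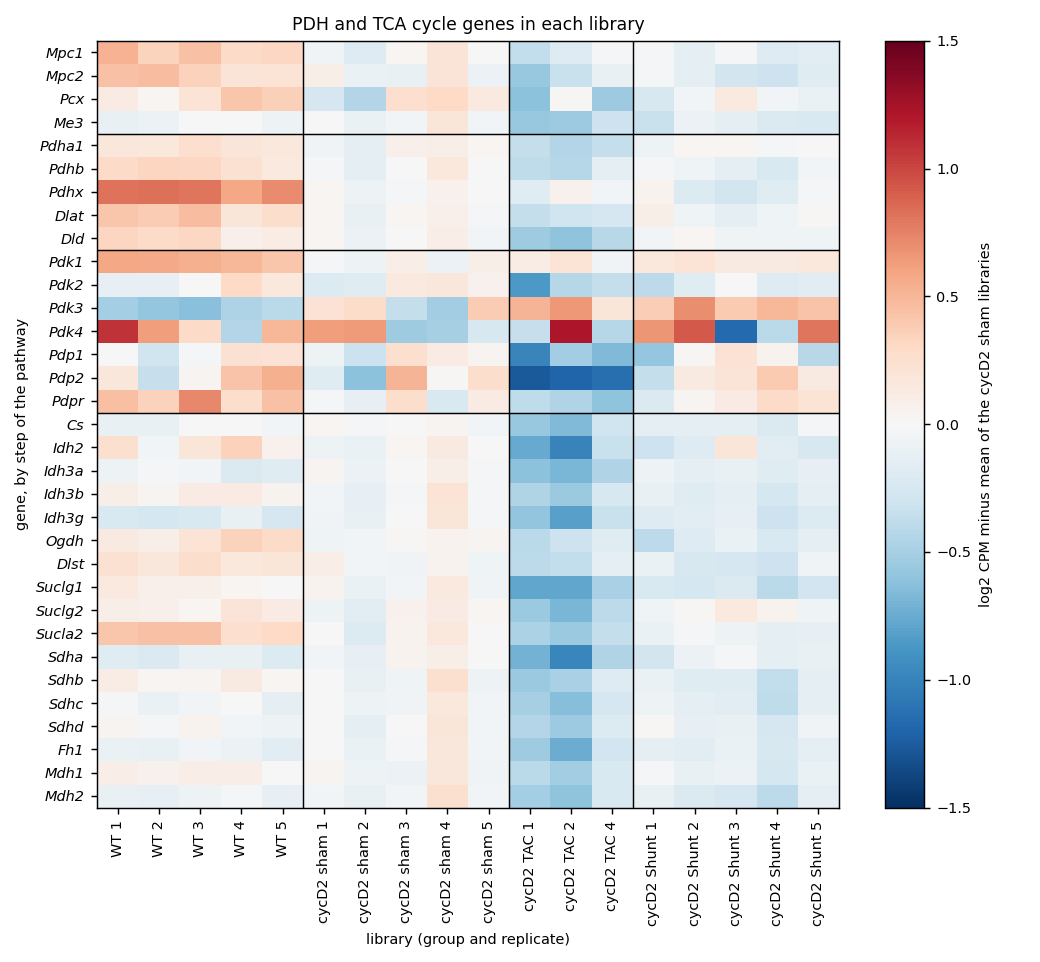
Log2 CPM of the 33 genes (rows, by step) in each of the 18 libraries (columns), minus the mean of the cycD2 sham libraries. Blue is lower and red higher. The 3 TAC columns are blue over most rows, the Shunt columns are pale, and WT is red for PDH subunits.

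Volume load gave no call among the 33 genes. In cycD2 Shunt against cycD2 sham 0 of the 33 were called by edgeR, with 0.134% of all genes tested called lower and 0.108% higher, so few calls were made on any gene. Below an unadjusted p of 0.05, 13 of the 33 genes were lower and 2 higher (15 in all), where 7.07% and 7.50% of all genes were. By DESeq2, 1 gene was called: Suclg1, lower. The median log2 difference of the 33 was -0.12, beside 0.0041 over all genes. Of the 17 TCA enzymes 16 had estimates below 0, with a median of -0.17. In 4 of them, Suclg1, Idh3g, Ogdh and Mdh2, every Shunt library was below every sham library, as for 2.30% of all genes tested. In Shunt replicates 1 to 5, 12, 15, 16, 20 and 14 of the 33 genes were below every sham library, against 23.2%, 18.7%, 18.4%, 21.3% and 18.1% of all genes tested. Suclg1 came closest to the threshold, at -0.28 (SE 0.066, adjusted p = 0.0899) with a 95% interval of -0.42 to -0.14. PDH subunits stayed between -0.12 (Pdhx) and -0.0068 (Pdha1), and the interval of Pdha1, -0.12 to 0.10, does not contain its fall under TAC. Pdk1 was higher in every Shunt library than in every sham library, at 0.15 (SE 0.057, adjusted p = 0.233), as 1.79% of all genes were. Pdp2 was at 0.074 (SE 0.19, adjusted p = 0.891), with an interval of -0.32 to 0.47. Shunt libraries differ from all sham libraries in Y-linked expression, and that difference and the load cannot be told apart. With the Y-linked level as a covariate, estimated from the TAC libraries, the median was 0.15, of opposite sign, and 0 genes of all were called.

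The direct comparison of the loads, Shunt with TAC, found 21 of the 33 genes higher in Shunt and 0 lower, where 13.3% of all genes tested were higher and 13.6% lower. It shares its TAC libraries with the comparison of TAC with sham. Of the marker lists, 6 of 7 fibroblast markers (median -0.75) and 3 of 6 endothelial markers were lower in Shunt, and of the 8 heart muscle markers 4 were higher and 1 lower. The summed fibroblast level was 1130 to 1953 CPM in Shunt, and the part of cell makeup was not tested. The genes called were 13 of 17 TCA enzymes, 3 of 5 PDH subunits (Pdha1, Dlat and Dld), Pdk2, the phosphatase genes Pdp1 and Pdp2, their regulator Pdpr, and Me3. The median was 0.29, beside -0.0089 over all genes. For 14 genes every Shunt library was above every TAC library, as for 12.2% of all genes tested. The smallest adjusted p values were those of Suclg2, 0.56 (SE 0.077, adjusted p = 9.17e-05), Idh3a, 0.46 (SE 0.068, adjusted p = 0.000167), and Dld, 0.47 (SE 0.072, adjusted p = 2e-04). Pdha1 followed with 0.38 (SE 0.062, adjusted p = 0.000319) and Sdha with 0.57 (SE 0.095, adjusted p = 0.000394). Pdp2 had the largest difference, 1.32 (SE 0.23, adjusted p = 0.000646), or 2.49 times the TAC level. Suclg1, at 0.40 (SE 0.077, adjusted p = 0.00123), and Cs, at 0.37 (SE 0.074, adjusted p = 0.00144), were higher in Shunt than in TAC in all libraries. Ogdh, Dlst, Sdhb and Mdh2 were the TCA enzymes not called, with 0.087, 0.11, 0.21 and 0.21.

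Without the library labelled cycD2 TAC replicate 2, 15 of these 21 calls remained (Me3, Pdk2, Idh3b, Sdhc, Sdhd and Mdh1 were lost) and Pcx was gained. Without TAC replicate 1, 14 remained, Pdp1 being lost beside the same 6. Every TAC library had Arntl above Dbp and every Shunt library the reverse, so within a clock state no comparison was possible. With the clock difference as a covariate 11 of the 21 calls remained, while 2127 of all genes tested were called, of 4015 without it. Of the 11, Pdp2 had a smaller difference, 0.84 (adjusted p = 0.0146), and Dld 0.54 (adjusted p = 0.00125). Pdk2 and Pdp1 were at 0.074 and 0.30 and were not called.

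Genes that serve the same steps were counted by lists chosen with earlier results of these data known. Their counts stand beside the shares of all genes tested: 14.9% lower and 13.5% higher for sham against WT, 14.5% lower and 16.4% higher for TAC against sham, and 13.3% higher and 13.6% lower for Shunt against TAC. Of 16 tested shuttles and carriers of TCA intermediates, 12 fell and 1 rose in TAC against sham, with a median of -0.32, and 10 were higher and 1 lower in Shunt than in TAC. Slc25a22, a mitochondrial glutamate carrier, went from 56.2 ± 6.84 to 30.9 ± 1.62 CPM in TAC, a difference of -0.86 (SE 0.13, adjusted p = 1e-04). Got1, the cytosolic aspartate aminotransferase of the malate-aspartate shuttle, went from 1001 ± 50.9 to 707 ± 77.3 CPM, and Slc25a12, its aspartate-glutamate carrier, from 356 ± 19.7 to 251 ± 35.2 CPM. Slc25a1, the citrate carrier, was lower in Shunt than in TAC, with -0.78 (SE 0.14, adjusted p = 0.000585). Of 11 genes of lactate, alanine and pyruvate handling, 5 fell and 3 rose in TAC. Gpt2, the mitochondrial alanine aminotransferase, fell by 1.27 (SE 0.17, adjusted p = 5.99e-05) and its cytosolic form Gpt fell by 1.19 (SE 0.18, adjusted p = 0.000169), while Slc16a3, a lactate exporter, rose from 3.78 ± 0.828 to 12.4 ± 2.89 CPM, a difference of 1.71 (SE 0.25, adjusted p = 9.1e-05).

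PDH and 2-oxoglutarate dehydrogenase work only with lipoic acid bound to Dlat and Dlst. Of 11 genes that make or attach it, 7 fell and 0 rose in sham against WT, where PDH subunits also fell, among them Iba57, an iron-sulfur assembly factor, which fell by 0.75 (SE 0.14, adjusted p = 0.000663), and Lipt1, a lipoyl transferase, which fell by 0.41 (SE 0.091, adjusted p = 0.0024). In TAC 4 fell, among them Lias, the lipoate synthase, which fell by 0.43 (SE 0.086, adjusted p = 0.00109). Of 11 assembly factors of succinate dehydrogenase and enzymes and carriers of the cycle outside the 33 genes, 6 fell in sham against WT and 3 in TAC against sham, the latter not far from the 14.5% of all genes. They include Slc25a42, a CoA carrier, which fell by 0.89 (SE 0.14, adjusted p = 0.00016) in TAC. Sdhaf2 and Sdhaf4, assembly factors of Sdha, fell in sham against WT, with -0.47 (SE 0.067, adjusted p = 7.39e-05) and -0.44 (SE 0.081, adjusted p = 0.000617), while Sdha itself was not called.

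Of 17 listed transcriptional regulators of oxidative metabolism, 8 fell and 2 rose in TAC against sham, and 9 were higher and 0 lower in Shunt than in TAC. Ppara, the fatty acid receptor that drives Pdk4, fell from 42.8 ± 5.45 to 26.4 ± 1.85 CPM, a difference of -0.69 (SE 0.17, adjusted p = 0.00536), and its partner Rxra fell by 0.48 (SE 0.10, adjusted p = 0.00168). Hif1a rose by 0.57 (SE 0.11, adjusted p = 0.000578). Ppargc1b, a coactivator of mitochondrial genes, was higher in Shunt than in TAC by 0.78 (SE 0.14, adjusted p = 0.00065). Of 14 PPAR targets listed beside Pdk4, 8 fell in TAC and 0 rose, Hadha and Acadm of fatty acid oxidation foremost, with -0.82 (SE 0.10, adjusted p = 2.18e-05) and -0.66 (SE 0.089, adjusted p = 5.33e-05), whereas Pdk4 was not called. Of 12 HIF targets listed beside Pdk1, 3 rose in TAC and 0 fell, not far from the 16.4% of all genes that rose: P4ha1, a collagen prolyl hydroxylase, by 1.56 (SE 0.21, adjusted p = 5.94e-05), Car9, a carbonic anhydrase, by 2.96 (SE 0.43, adjusted p = 8.14e-05), and Bnip3 by 0.54 (SE 0.099, adjusted p = 0.000568). Pdk1 was not called there. None of these 7 lists had a gene called in Shunt against sham, where only 0.134% of all genes tested were lower and 0.108% higher.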

How the data were processed

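Left ventricular RNA of 18 libraries was sequenced, from TruSeq RNA v2 libraries per the labels' protocols, which do not mark the strand. The authors deposited 1 table of raw read counts per gene for each library. The submitters' processing notes name HTSeq 0.6.1p1, DESeq2 1.8, CASAVA 1.8.2, STAR 2.3.0e, FastQC and SAMtools 0.1.19, and GRCm38 and mm10, without their roles. The annotation release and strand setting are not given in the sources used here. The summary lines of the tables were left out of library sizes and tests, and reads with no feature were 13.64% to 22.78% of reads with a gene, with none or ambiguous. Symbols and positions came from GENCODE M21 (36602 of 38355 identifiers matched).

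Genes were kept with filterByExpr (minimum count 10), which left 14876, scaled by TMM factors, and fitted with 1 mean per group over all libraries in edgeR 4.0.16 (quasi-likelihood F test, robust, R 4.3.3; biological coefficient of variation 0.16). Calls were made at a Benjamini-Hochberg adjusted p under 0.05 over all genes tested in the comparison. Adjusted p values in the text are from this fit unless another is named, and the SE is the log2 difference over the square root of F. The self-made steps were tested on simulated counts. CPM and RPKM (CPM per kilobase of merged exons) were computed from the counts with TMM factors. All levels in the text are CPM unless RPKM is written, with the SD, and values of a group follow in the order of its replicate numbers (1, 2 and 4 for TAC). Precision is set by the number of libraries and, where counts are few as for Pdk3, by counting error. No 2 libraries of a group agreed within counting error (lowest chi-square 7.08 per gene).

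The members and lists were chosen with earlier results of these data known. In each comparison up to 8 called members with the smallest p are given in full, per-library values are given for up to 4 members of each step (6 of the TCA enzymes) and up to 3 genes are named of each list. One gene that this rule names is not reported here. Pdk3 and Pdk4, and the genes set out by clock state, lie outside this rule and were chosen after their values were seen. Alternatives were DESeq2 1.42.0, relative log expression scaling, other filters, a replicate block, Y-linked, clock and atrial covariates (means of marker genes in log2 CPM), groups fitted alone, libraries of 1 clock state and leaving out each library. Residuals of libraries with the same replicate number correlated at 0.129, 0.151 and 0.157 for TAC and sham, above the limit of 0.1. The block thus counts as pairing there by that limit alone, since the labels do not tie the numbers to litters or days. The sham library that correlated best had the same number for TAC replicate 4 and not for replicates 1 and 2. In the other comparisons at least 1 value was under the limit. For Shunt and TAC the values were 0.17, 0.139 and 0.0928, and the best match had the same number for replicates 1, 2 and 4.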

Additional observations from a re-analysis of the deposited data

Results flagged for a closer look

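In groups of 5 libraries, 1 library stood apart from the other 4 for its gene in 4 of 99 sets of gene and group. On the log2 scale, its gap to the nearest library, as a share of the group's range, was above Dixon's 95% critical value. Chance alone passes this value in about 1 in 20 sets. Pdha1 in WT replicate 3 was at 1523 CPM, with the others at 1426 to 1443. Idh3g in WT replicate 4 was at 802 CPM, with the others at 723 to 743. Mdh2 in cycD2 sham replicate 4 was at 2246 CPM, with the others at 1770 to 1856. Sdhc in cycD2 Shunt replicate 4 was at 657 CPM, with the others at 768 to 815.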

How the results depend on the processing

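No called gene of the 33 changed direction under any alternative. Sham against WT kept 2 of 14 calls under every setting (Pdhx and Pdk1), TAC against sham 4 of 27 (Dld, Idh3a, Suclg1 and Sdha), and Shunt against TAC 7 of 21 (Pdha1, Dld, Pdp2, Pdpr, Idh3a, Suclg2 and Sdha). Leaving out each library in turn, genes called lower and higher were 8 to 12 and 1 to 3 for sham against WT, 25 to 29 and 0 to 1 for TAC against sham, 0 to 1 and 0 for Shunt against sham, and 0 and 14 to 24 for Shunt against TAC. The replicate block changed no call of the 33 in any comparison (12 lower and 2 higher, 27 lower, none, and 21 higher). The Y-linked covariate left 5 genes lower in TAC. The clock covariate left 1 gene higher in sham (Pdk3), 25 lower in TAC than in sham and 11 higher in Shunt than in TAC. When the library labelled cycD2 TAC replicate 2 was also left out, 21 were lower in TAC than in sham. That fit left 7 higher in Shunt than in TAC and gave 1 lower in Shunt than in sham. The atrial covariate left 8 lower and 1 higher in sham. DESeq2 called 1 lower in Shunt against sham. Within libraries with Arntl above Dbp, 6 were lower and 1 higher in sham and 10 lower in TAC, and within those with Dbp above Arntl 2 were lower and 1 higher in sham. These last fits have fewer libraries, and for these comparisons the calls over all genes tested fell in them too. The causes of the other differences were not tested. For Shunt against TAC no fit within 1 clock state was possible.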

Other observations

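Ogdhl, a relative of Ogdh that is not among the 33 genes, had the largest difference of the genes listed beside the pathway. It lay at 287 to 365 CPM in WT (mean 309.9 ± 31.5, n = 5) and at 23.0 to 44.3 in cycD2 sham (mean 33.9 ± 9.86, n = 5), a log2 difference of -3.19 (SE 0.39, adjusted p = 4.05e-05) by edgeR. In cycD2 TAC it lay at 16.8 to 75.4 CPM and in cycD2 Shunt at 11.9 to 37.0, so no transgenic library came near WT, the library labelled cycD2 TAC replicate 2 included. Ogdh itself is far more abundant in the same libraries.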
